A study of Homo sapiens with 27 samples.

Results

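The subject is one antisense oligonucleotide, GapmeR2 against the long noncoding RNA (lncRNA) lnc-NKX2-3-1, and the transcriptome of the cells that received it. Its members are 3 of the 27 RNA sequencing libraries of the series, chosen by their labels (lnc-NKX2-3-1 GapmeR2, replicates 1, 2 and 3). All libraries came from REH, an ETV6/RUNX1-positive line of human B-cell precursor acute lymphoblastic leukemia. RNA was taken 72 h after addition of GapmeR2 at 10 µM, of a non-targeting GapmeR (NTC, 3 libraries) at the same concentration, or of medium without any oligonucleotide (2 libraries, replicate numbers 1 and 2). The 5 NTC and medium libraries together served as controls. For comparison served lnc-NKX2-3-1 GapmeR1 (2 libraries, replicate numbers 1 and 2) and the GapmeRs against the other 3 lncRNAs of the series (17 libraries, for lnc-RTN4R-1, for lnc-ASTN1-1 and for lnc-TIMM21-5). GapmeR1 and those 6 are called the other 7 targeting GapmeRs. The study's methods place each replicate on its own day, so a replicate number was taken to stand for a day. Replicate number was a block in the fits. Their p-values therefore measure the spread between libraries of 1 line that is left after differences between replicate numbers. In the main comparison that spread includes any difference between medium and NTC. All results are from 1 cell line, 1 concentration and 1 time point.

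A GapmeR is a short single-stranded oligonucleotide with a stretch of DNA between locked nucleic acid bases at both ends. The DNA stretch pairs with RNA, and RNase H, an enzyme of the nucleus and cytosol, cuts the RNA strand of that hybrid. The cut RNA is then degraded. Because RNase H also works in the nucleus, introns of unspliced transcripts can pair with a GapmeR as well as exons of mature RNA. In gymnosis the oligonucleotide is taken up from the medium without a transfection reagent. Long noncoding RNAs are transcripts that are not translated, and many stay in the nucleus near the gene that encodes them. NKX2-3, the protein-coding neighbour that gives this lncRNA its name, is a homeobox transcription factor.

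The oligonucleotides are shown first, to let their sites in the target and in other genes be read beside the levels. They are written 5′ to 3′ in lower case.
lnc-NKX2-3-1 GapmeR2: ctgatttttagtagtg
lnc-NKX2-3-1 GapmeR1: tgctctgtgcggattg
NTC: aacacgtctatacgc
GapmeR2 has 16 bases and a GC content of 31.25%, against 56.25% for GapmeR1, which is as long. NTC has 15 bases. The sites of both lnc-NKX2-3-1 GapmeRs lie side by side in the last of the 2 exons of the lncRNA, a plus-strand gene (ENSG00000228778) at chr10:99526948-99528467 (GRCh38). GapmeR2 pairs with chr10:99528191-99528206 and GapmeR1 with chr10:99528207-99528222, with 0 bases in between. Below is the sense strand around them, chr10:99528167-99528246, with the GapmeR2 site in capitals.
lnc-NKX2-3-1: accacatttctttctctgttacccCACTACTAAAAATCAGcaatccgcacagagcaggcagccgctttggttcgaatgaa

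The 8 libraries of the main comparison held 16028895 to 22311701 gene counts on the transcript strand, and all 27 held 14627110 to 22750945. GapmeR2 replicate 3 stood apart, with 4.53% of its reads unmapped against 1.01% to 1.72% in the controls and at most 2.71% in the other 26 libraries of the series. It also had the lowest shares of multimapping reads (6.07%, others from 6.39%) and of reads assigned to genes (71.5%, others from 73.3%). The target, the number of calls and several of the gene lists are therefore also given without it. Of 19 B-cell precursor markers 17 were abundant enough to be tested. The summed level of these 17 was 5970 to 6519 CPM (counts scaled to library size) with GapmeR2 and 6341 to 7152 CPM in the controls. VPREB1 had 0 counts in all 8 libraries and CD34 2 to 13. Of 20 markers of other blood cells 9 had no count in any of the 8 libraries and 6 were tested. The summed level of these 6 was 105.1 to 134.3 CPM against 101.2 to 161.2 CPM. Most of it was MPO, a myeloid marker, with a mean of 95.3 CPM with GapmeR2 and 100.7 CPM in the controls. The tested markers of the labelled cells were thus abundant.

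lnc-NKX2-3-1 was nearly absent after GapmeR2. The 3 GapmeR2 libraries held 4, 3 and 0 counts, the medium libraries 17 and 23, and the NTC libraries 10, 12 and 6. In CPM, this was 0.180, 0.168 and 0 against 0.921 and 1.27 in medium and 0.572, 0.756 and 0.329 in NTC. No GapmeR2 library reached the lowest control. The log2 fold change was −2.47 (SE 0.489) with an adjusted p of 0.00197 in the edgeR quasi-likelihood test with Benjamini-Hochberg adjustment, and the exact permutation test over the 8 libraries gave p = 0.0179 (two-sided, 56 arrangements). Within replicate numbers the exact permutation test gave p = 0.0556, the smallest that 18 arrangements allow. The lncRNA is rare in REH cells, at most 23 counts per library, so the depth of the knockdown is loosely determined. Without GapmeR2 replicate 3 the log2 fold change was −2.28 (edgeR adjusted p 0.0193). Without GapmeR2 replicate 2 the adjusted p of the lncRNA no longer passed 0.05, while its log2 fold change was −2.39. DESeq2 gave it no adjusted p, as its own filter set aside genes of low count. GapmeR1 libraries had 0.0518 and 0.183 CPM on the scale of the fit of all 27 libraries, where GapmeR2 ranged from 0 to 0.178. GapmeR2 minus GapmeR1 was 0.13 on the log2 scale (SE 0.828), an error too wide to order them.

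Neighbouring genes within 500 kb were followed because lncRNAs can act on nearby genes. Of 18 neighbours 9 passed the filter on low counts and 0 were called by edgeR at an adjusted p under 0.05 (1, NKX2-3, at an unadjusted p under 0.05, and 0 by DESeq2, which gave 5 of the 9 no adjusted p). NKX2-3, which starts 4475 bases downstream, had 7, 7 and 7 counts with GapmeR2, 19 and 15 in medium, and 16, 17 and 8 in NTC. Every GapmeR2 library was thus below every control, by 1 count at the closest. Its log2 fold change was −1.13 (SE 0.358) with an adjusted p of 0.0728. Set beside it, GapmeR1 against the same controls was at −1.10 (SE 0.385, edgeR adjusted p 0.0235). GapmeR2 minus GapmeR1 was −0.32 (SE 0.472, edgeR adjusted p 0.653). GOT1 (−0.29), COX15 (−0.25) and DNMBP (−0.42) were also lower with GapmeR1 at an adjusted p under 0.05, which they were not with GapmeR2. LINC01475, a lncRNA that overlaps lnc-NKX2-3-1 on the opposite strand, held 103 to 126 counts with GapmeR2 and 93 to 120 in the controls (log2 fold change −0.06, SE 0.121). GOT1, COX15, CUTC, DNMBP, ABCC2, SLC25A28 and GOT1-DT had log2 fold changes between −0.16 and 0.15. When both strands were counted together the log2 fold change of lnc-NKX2-3-1 shrank to −0.47 (SE 0.259, edgeR adjusted p 0.386). Whether reads of LINC01475 entered that count was not tested.

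Across the transcriptome 412 of 15126 genes tested (2.72%) were called at an adjusted p under 0.05, of which 218 (1.44%) rose and 194 (1.28%) fell. Shifts were small, with a median fold of 1.22 among genes that rose and 0.883 among genes that fell. An absolute log2 fold change of at least 1 was reached by 7 genes that rose and 2 that fell, lnc-NKX2-3-1 and CD84. Genes that fell were more abundant, with a median control level of 120 CPM against 22.7 CPM for genes that rose and 24.3 CPM for all genes tested. Against NTC of the same replicate number, 209 of the 218 were higher in all 3 and 192 of the 194 lower in all 3. Beyond every control of the same replicate number in all 3 were 208 and 190, where the background over all genes was 10.6% above and 10.7% below. The calls came from the same libraries with replicate number as a block, so such order largely follows from the call. The ranges of GapmeR2 and controls did not overlap for 54 of the genes that rose and 74 of those that fell, where the background over all genes was 1.70% above and 1.85% below every control.

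These calls rest on comparing libraries of the same replicate number. The fit with no replicate block called 0 genes by edgeR (615 at an unadjusted p under 0.05). DESeq2 with the block called 220, and of the 412 it called 184 in the same direction and gave 124 no adjusted p. Without GapmeR2 replicate 3 the count was 162, of which 146 were shared with the full set in the same direction. It was 98 without GapmeR2 replicate 1 and 71 without GapmeR2 replicate 2. On the control side it was 163 without NTC replicate 3, 234 without medium replicate 1 and 579 without NTC replicate 2. With medium and NTC as separate groups it was 901, with NTC as the only control 241, and with medium as the only control 987. A core of 20 genes that rose and 21 that fell was called with every single library left out. That core includes CD84, YBX1, TMEM268, NUP205, DYM, WWOX, TEC, CHL1, ALDH5A1, HSPA8 and DNTT among genes that fell and IGLC3, IGLC6, IGLV2-23, IGLV3-21, IGHV3-15, HSPA5, HSP90B1, HMGCS1, SH3BP2 and CDC6 among genes that rose. NTC and medium differed in 11 of 16268 genes (0.0676%), 6 higher (0.0369%) and 5 lower (0.0307%) in NTC. Of these 11, 1, ERG, was among the 412. At an unadjusted p under 0.05 edgeR gave 1286. With 3 NTC and 2 medium libraries, the low count of calls does not show that the control oligonucleotide moved little.

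**Figure D1:**
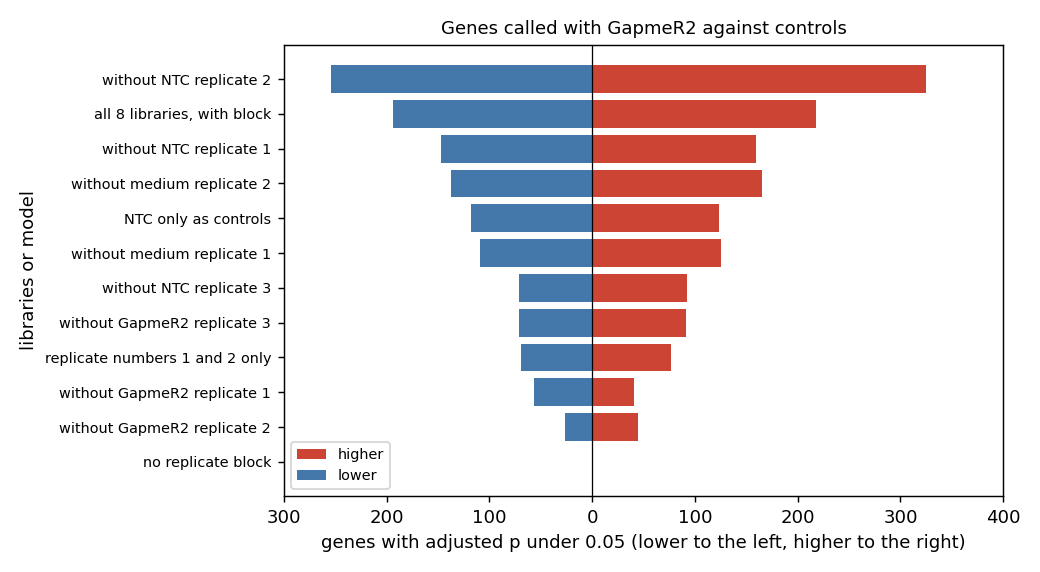
Bars give the number of genes with an adjusted p under 0.05 in GapmeR2 against controls (x axis, lower to the left, higher to the right) for each set of libraries or model (y axis). All 8 libraries gave 218 higher and 194 lower, leaving out a GapmeR2 library left 71 to 162 in all, and the fit with no replicate block gave 0.

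Genes with a near-complementary site were examined next, since a GapmeR can pair with RNAs other than its target. An RNA pairs with all 16 bases of GapmeR2 if it holds the sequence below, and 1 base may differ at a near site. Searching the genome on both strands found 2 exact sites, 159 with 1 mismatch and 4542 with 2. The other exact site, chr12:95316643-95316658 on the minus strand, lies in ENSG00000257943, which is not among the genes tested here. The near sites of the 4 called genes follow, with the base that differs in capitals.
Full match in lnc-NKX2-3-1: cactactaaaaatcag
CD84: cactactaaaaatcaC
YBX1: cGctactaaaaatcag
TMEM268: cTctactaaaaatcag
NUP205: cTctactaaaaatcag
Counted from 1 at the 5′ end of the site, the changes are G16C in CD84, A2G in YBX1, and A2T in TMEM268 and in NUP205, where the first letter is the base of the full match. All 4 differ near an end and leave a run of 15 (CD84) or 14 bases that can pair. This does not set them apart from genes that were not called. The A2T site of TMEM268 and NUP205 also lies, letter for letter, in CNKSR3, RSPRY1, UIMC1, PDE10A and SSR1. None of these was called, with log2 fold changes from −0.13 (CNKSR3) to 0.04 (SSR1). The CD84 site lies in its 3′ UTR (chr1:160542989-160543004, minus strand). The other sites are intronic and on the plus strand, at chr1:42700432-42700447 in YBX1, at chr9:114618502-114618517 in TMEM268 and at chr7:135620365-135620380 in NUP205.

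Apart from the target, 19 tested genes held a site with 1 mismatch on the strand that can pair, and 4 of them (21.1%) fell, 0 rose and 15 had a negative log2 fold change. The background of genes that fell is 1.28%. On the opposite strand, which has the same letters as GapmeR2 and cannot pair, 34 genes had their best match at 1 mismatch and 1 of them (2.94%) fell. With 2 mismatches on the pairing strand 592 genes were found, of which 17 (2.87%) fell and 5 rose, and with 2 on the opposite strand 901 genes, of which 13 fell and 13 rose. Of the 14316 genes with no site within 2 mismatches 171 (1.19%) fell. Genes with near sites are long, with a median span of 123 kb at 1 mismatch on the pairing strand and 106 kb on the opposite strand, against 25.9 kb over all genes tested. The part of gene length in these shares was not tested. Without GapmeR2 replicate 3 the 19 genes included 5 that fell, the same 4 and DOCK10, and leaving out any other library left 4 or 5. The fit with no replicate block called 0 of them, and DESeq2 called 3, having given CD84 no adjusted p.

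CD84, a receptor of the SLAM family on B cells, showed the largest fall after the target itself. It had 1.62, 2.64 and 3.04 CPM with GapmeR2, 5.20 and 4.24 CPM in medium, and 4.29, 4.85 and 6.80 CPM in NTC. Every GapmeR2 library lay below every control. The log2 fold change was −1.16 (SE 0.157, edgeR adjusted p 4.83e-06), or 44.8% of the control level.

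YBX1, a cold-shock domain protein that binds RNA and DNA, is abundant. Its level was 577, 570 and 416 CPM with GapmeR2, 754 and 799 CPM in medium, and 713, 739 and 532 CPM in NTC. Replicate 3 was low in both NTC and GapmeR2, so the groups overlap, but within each replicate number GapmeR2 was the lowest. The log2 fold change was −0.38 (SE 0.0390, edgeR adjusted p 1.23e-08), the smallest adjusted p of the comparison together with ALDH5A1.

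TMEM268, a transmembrane protein, had 60.5, 54.3 and 56.6 CPM against 69.3 and 78.0 CPM in medium and 66.5, 71.1 and 75.4 CPM in NTC, with no overlap (log2 fold change −0.33, SE 0.0522). NUP205, a scaffold protein of the nuclear pore, had 267, 291 and 243 CPM against 332 and 363 CPM in medium and 318, 338 and 275 CPM in NTC (log2 fold change −0.25, SE 0.0394). Here NTC replicate 3 fell within the GapmeR2 range. The 15 other genes with 1 mismatch on the pairing strand, among them DHX9, DOCK10, CLASP1, PLCB1, SSR1, MAGI2 and CNKSR3, were not called, with log2 fold changes from −0.20 (MAGI2) to 0.16 (EML6). In MAGI2 and CNKSR3 the site lies in an exon, in CNKSR3 within the 3′ UTR.

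**Figure D2:**
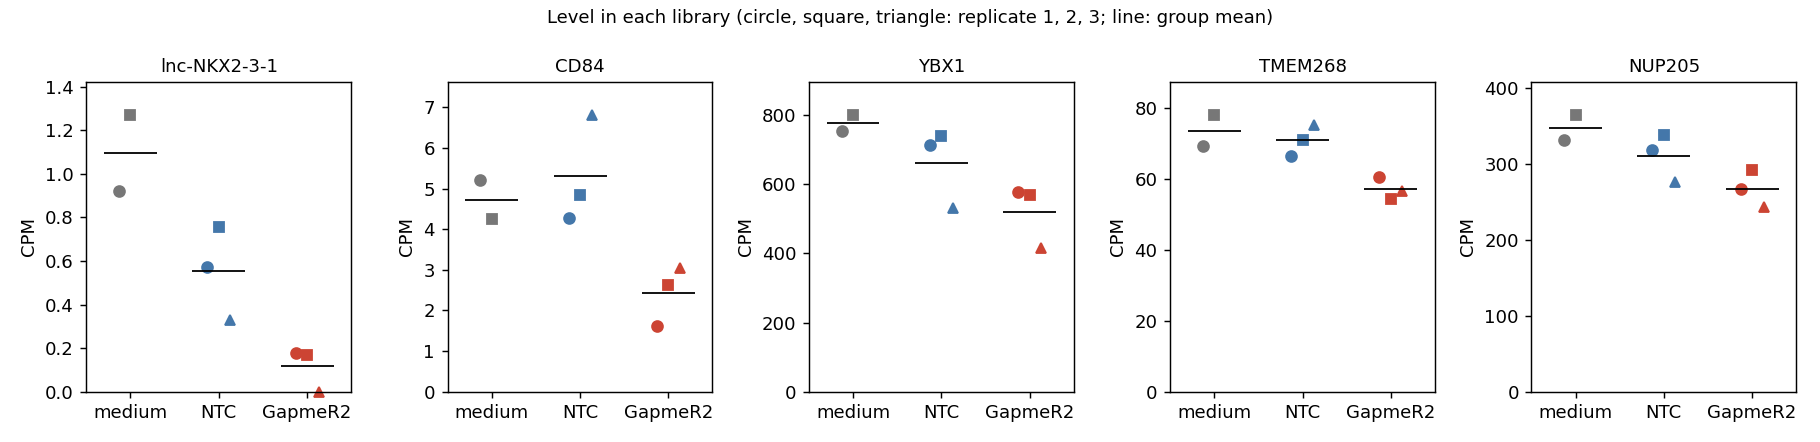
Points give the level in CPM (y axis, from 0) of lnc-NKX2-3-1 and of the 4 called genes with a 1-mismatch site in each medium, NTC and GapmeR2 library (x axis), shaped by replicate number, with a line at the group mean. For lnc-NKX2-3-1, CD84 and TMEM268 no GapmeR2 point reaches a control, and for YBX1 and NUP205 the triangles of replicate 3 are low in both NTC and GapmeR2.

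**Figure D3:**
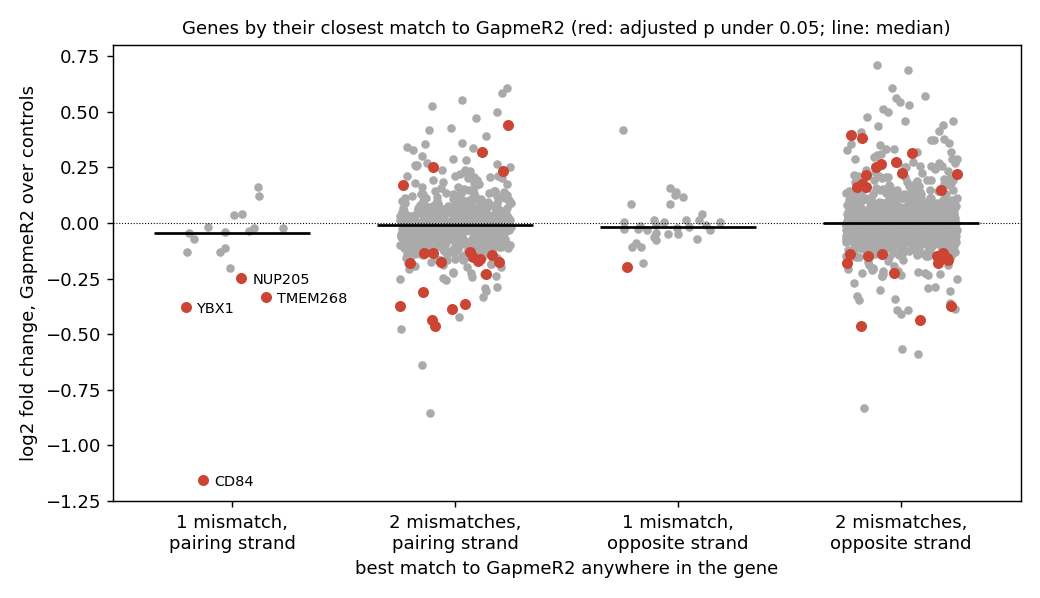
Each point is a gene, placed by the mismatches of its best site for GapmeR2 and by strand (x axis), with its log2 fold change of GapmeR2 over controls (y axis), red where the adjusted p is under 0.05 and with a line at the median. In the class with 1 mismatch on the pairing strand 4 of 19 points are red and all 4 lie below 0.

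These 4 genes were also compared with other GapmeRs, a contrast without control libraries. GapmeR2 differed from GapmeR1 on the log2 scale by −2.50 for CD84, −0.54 for YBX1, −0.34 for NUP205 and −0.18 for TMEM268, all at an adjusted p under 0.05 in the edgeR fit of all 27 libraries. GapmeR1 was itself above the controls for CD84 (1.37, adjusted p 5.51e-11) and YBX1 (0.14, adjusted p 0.0168), which enters these differences. Against the mean of the other 7 targeting GapmeRs the differences were −1.57 for CD84 (SE 0.138, adjusted p 7.54e-11), −0.45 for YBX1 (SE 0.0331, adjusted p 6.49e-13), −0.25 for NUP205 (SE 0.0337, adjusted p 1.70e-06) and −0.22 for TMEM268 (SE 0.0479, adjusted p 0.00166). In both contrasts many genes passed, 33.4% of 16268 against GapmeR1 (17.2% higher, 16.2% lower) and 12.3% against the other 7 (6.95% higher, 5.31% lower). Each of the 4 genes had its lowest mean of all 10 groups in GapmeR2, and for CD84 no library of another group was as low as the highest of GapmeR2 (3.00 CPM, next lowest 4.19 CPM). The 4 were chosen because these GapmeR2 libraries were low, so low ranks are not independent of that choice. Among the uncalled genes with 1 mismatch, RSPRY1 (−0.13) and DHX9 (−0.10) were also below the other 7 at an adjusted p under 0.05. PLCB1 (0.58), EML6 (0.35), IL1RAP (0.24) and CLASP1 (0.14) were above them.

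Among genes with 2 mismatches on the pairing strand that fell were DYM, WWOX, DMD and STS. DYM, a protein of Golgi organisation, fell from 40.5 to 54.5 CPM in the controls to 32.9, 35.4 and 38.7 CPM with GapmeR2 (log2 fold change −0.44, SE 0.0577), with no overlap. WWOX, an oxidoreductase that spans a fragile site, had 35.6, 32.7 and 27.3 CPM against 38.6 to 47.5 CPM (log2 fold change −0.37, SE 0.0582). DMD, which encodes dystrophin, had 8.85, 6.96 and 7.21 CPM against 9.98 to 11.3 CPM (log2 fold change −0.46, SE 0.100). WWOX and DMD were nonetheless higher with GapmeR2 than with GapmeR1, by 1.37 and 1.62 on the log2 scale, and higher than the mean of the other 7, by 0.87 and 0.47. DYM and STS did not pass against GapmeR1 (0.08 and 0.04, edgeR adjusted p 0.400 and 0.841). GapmeR1 was itself below the controls for DYM (−0.49) and STS (−0.41). Against the mean of the other 7 DYM was lower (−0.23, edgeR adjusted p 0.000645) and STS did not pass (−0.12, edgeR adjusted p 0.321). Of all genes that fell 11.4% had a pairing-strand site within 2 mismatches, against 2.30% of genes that rose and 4.10% of all genes tested with coordinates.

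Immunoglobulin light chain genes of the lambda locus rose. B-cell precursors rearrange these segments as they mature, and transcription of the unrearranged locus precedes that step. Of 92 segments on the list 11 were abundant enough to be tested, 6 rose (background 1.44%), 0 fell and 10 had a positive log2 fold change, with a median of 0.42 against 0.00113 over all genes tested. The study named 7 immunoglobulin genes for this lncRNA on these samples, 6 of which rose here, so that count is not independent evidence. Short reads of near-identical segments are counted only where they map uniquely, which leaves these levels uncertain.

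IGLC3, a constant segment, had 112, 111 and 102 CPM with GapmeR2, 87.6 and 84.1 CPM in medium, and 76.4, 83.8 and 78.6 CPM in NTC (log2 fold change 0.41, SE 0.0450, edgeR adjusted p 3.83e-08). All GapmeR2 libraries were above all controls. IGLC6 rose from 7.39 to 10.0 CPM in the controls to 13.2, 14.5 and 15.1 CPM (log2 fold change 0.67, SE 0.0922). IGLV2-23, a variable segment, rose from 4.08 to 6.09 CPM to 8.76, 8.19 and 8.94 CPM (log2 fold change 0.70, SE 0.112). IGLV3-21, IGLV3-10 and IGLC2 also rose, by 0.38, 0.50 and 1.25 on the log2 scale, the last at under 1.2 CPM in every library. IGLC7 missed the threshold at 0.42 (SE 0.127, edgeR adjusted p 0.0631) although its ranges did not overlap. Without GapmeR2 replicate 3, 4 of the 11 segments rose, and DESeq2 with the block called 2 and gave 9 no adjusted p.

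In the heavy chain locus 7 segments were tested, of which IGHV3-15 rose (background 1.44%) and IGHD fell (background 1.28%). IGHV3-15 had 34.3, 28.8 and 32.0 CPM against 19.8 to 25.1 CPM in the controls (log2 fold change 0.45, SE 0.0624), with no overlap. IGHD, the constant gene of IgD, had 18.1, 20.0 and 20.1 CPM against 20.2 to 27.4 CPM (log2 fold change −0.28, SE 0.0715), narrowly without overlap.

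Both lnc-NKX2-3-1 GapmeRs were above the controls for the lambda segments, but not to the same height. Those contrasts share the control libraries, so their values are only set side by side. For IGLC3 GapmeR1 was 1.42 above the controls on the log2 scale and GapmeR2 0.41, and for IGLV2-23 they were 1.84 and 0.70. The direct test needs no control, and the log2 difference of GapmeR2 from GapmeR1 was −1.01 for IGLC3 (SE 0.0800, edgeR adjusted p 2.46e-10), −1.06 for IGLC6 and −1.07 for IGLV3-21. Against the mean of the other 7 targeting GapmeRs IGLC3 was 0.18 higher (edgeR adjusted p 0.0418), while IGLC6, IGLV2-23 and IGLV3-21 did not pass. GapmeR1 is part of that mean and raises it for these segments. The contrast therefore does not show how GapmeR2 stands to the GapmeRs against other lncRNAs. In the order of the group means of IGLC3, GapmeR2 (101 to 110 CPM) came second, and its range lay within that of lnc-TIMM21-5 GapmeR1 (90.8 to 123 CPM). IGHV3-15 stood differently, with 0.03 between the GapmeRs (adjusted p 0.853) and 0.31 above the other 7 (adjusted p 0.000301).

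**Figure D4:**
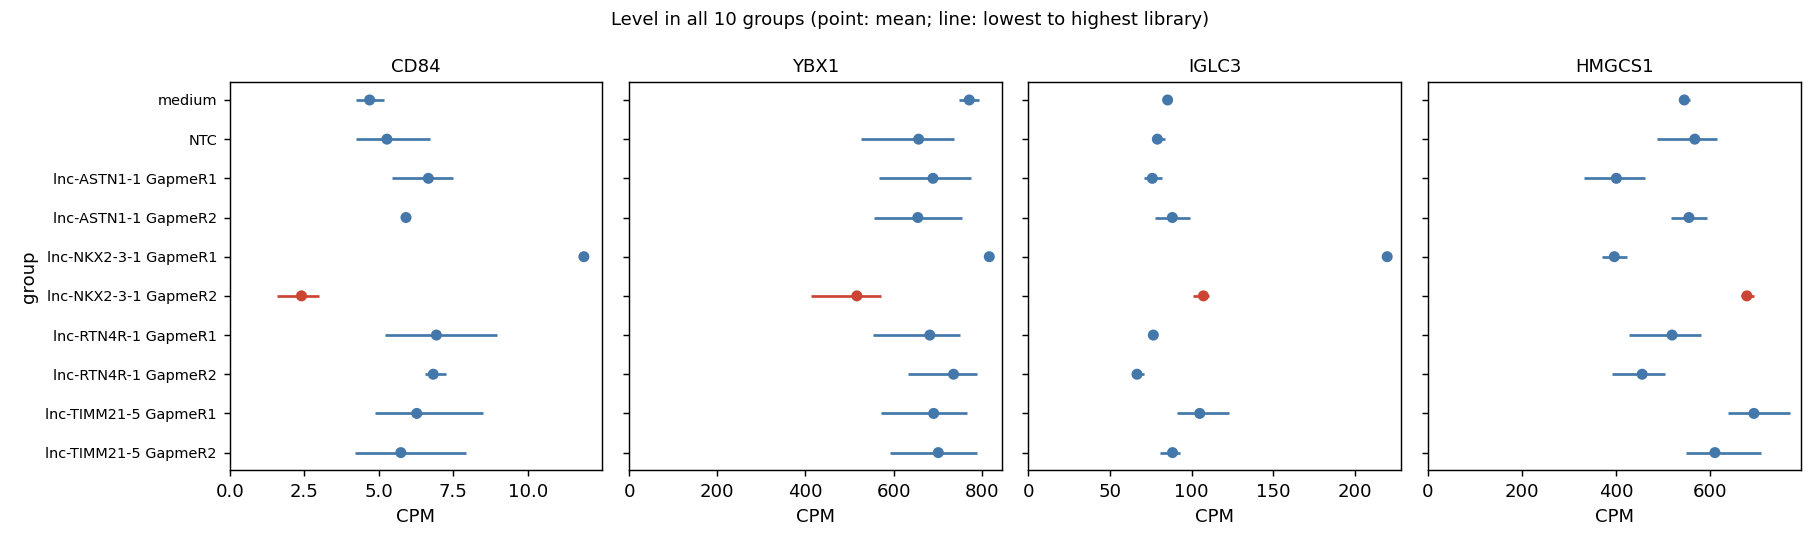
Points give the mean level in CPM (x axis, from 0) of CD84, YBX1, IGLC3 and HMGCS1 in each of the 10 groups (y axis), lines run from the lowest to the highest library, and lnc-NKX2-3-1 GapmeR2 is red. GapmeR2 holds the lowest mean of CD84 and YBX1, and lies next to lnc-TIMM21-5 GapmeR1 for IGLC3 and HMGCS1.

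Of the genes of cholesterol and fatty acid synthesis, 7 rose and the other 23 tested were not called. These enzymes are switched on by SREBP transcription factors when membrane sterol is low. Of 30 tested 7 rose (background 1.44%), 0 fell and 27 had a positive log2 fold change, with a median of 0.11. HMGCS1, which makes HMG-CoA for the mevalonate pathway, had 700, 668 and 682 CPM with GapmeR2, 561 and 535 CPM in medium, and 607, 615 and 491 CPM in NTC, with no overlap (log2 fold change 0.30, SE 0.0474, edgeR adjusted p 0.000499). The other 6 that rose were STARD4 (0.28), which moves cholesterol between membranes, MVD (0.29), LSS (0.18), MSMO1 (0.20) and SQLE (0.17) of the sterol pathway, and FASN (0.17), the fatty acid synthase. The regulators SREBF1 and SREBF2 were not called (adjusted p 0.998 and 0.925). With GapmeR2 replicate 3 left out 4 of 30 rose, and leaving out any 1 library gave from 2 (without GapmeR2 replicate 1) to 10 (without NTC replicate 2).

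The comparison with other GapmeRs depends on their own levels. HMGCS1 was above GapmeR1 by 0.86 (adjusted p 4.53e-07) and above the other 7 by 0.43 (adjusted p 7.82e-05) on the log2 scale. GapmeR1 itself was below the controls for HMGCS1 (−0.53, adjusted p 1.26e-08), and lnc-TIMM21-5 GapmeR1 had a higher mean (692 CPM) than GapmeR2 (677 CPM). LSS showed 0.80 and 0.29, with GapmeR1 at −0.62 against controls, and MVD 0.48 and 0.32, all past the threshold. FASN passed neither contrast. Of the 30 genes 19 differed from GapmeR1 in either direction (background 33.4%) and 11 from the other 7 (background 12.3%).

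In the list of the integrated stress and unfolded protein response, genes were called in both directions. That response combines ATF6 and XBP1, which raise folding capacity of the endoplasmic reticulum, with ATF4, which raises amino acid supply. Of 30 genes tested 5 rose (background 1.44%), 3 fell (background 1.28%) and 22 were not called. HSPA5, the chaperone BiP, had 424, 320 and 703 CPM with GapmeR2, 319 and 223 CPM in medium, and 353, 257 and 574 CPM in NTC (log2 fold change 0.35, SE 0.0425, edgeR adjusted p 1.71e-06). Replicate 3 was high in both NTC and GapmeR2, so the ranges overlap and only the within-day order separates the groups. The permutation over all 56 arrangements, which ignores the day, gave p = 0.268 (exact, two-sided).

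The other genes of this list that rose were SDF2L1 (0.50), HSP90B1 (0.21), XBP1 (0.15) and PDIA4 (0.14), which all serve folding in the endoplasmic reticulum or its control. PHGDH (−0.20), PSAT1 (−0.20) and SHMT2 (−0.15), which make serine and glycine and are targets of ATF4, fell. Members of like function that were not called include CALR (0.08), HERPUD1 (0.23), MTHFD2 (−0.14) and PSPH (−0.11). ATF4 itself was at −0.07 (SE 0.0368) and DDIT3 at 0.27 (SE 0.201), and neither was called. The differences of HSPA5 and XBP1 from GapmeR1 (adjusted p 0.155 and 0.244) and from the other 7 (0.131 and 0.0743) did not pass, whereas SDF2L1 was above both (0.44, adjusted p 0.00406, and 0.25, adjusted p 0.0301), as was HSP90B1 (0.32, adjusted p 0.00185, and 0.15, adjusted p 0.0490). When GapmeR2 replicate 3 was left out, 3 of the list rose and 3 fell, while without GapmeR2 replicate 2, 2 rose and 0 fell. Without NTC replicate 2, 8 rose.

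The promoters of these genes were read for the endoplasmic reticulum stress element, CCAAT followed by any 9 bases and CCACG, on both strands. The window ran from 250 bases before to 50 bases after the gene start in RefSeq. The fixed letters are in capitals.
HSPA5: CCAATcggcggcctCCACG
HSP90B1: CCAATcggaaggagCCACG
HSP90B1, second match: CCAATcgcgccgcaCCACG
XBP1: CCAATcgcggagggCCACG
CRELD2: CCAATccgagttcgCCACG
The element was found in 27 of 35116 promoters (0.0769%) and in 18 of the 10637 tested genes that matched the table by symbol. Of 162 matched genes that rose 4 held it, HSPA5, HSP90B1, XBP1 and CRELD2, and of 154 that fell 1, EIF2A. HSPA5, HSP90B1 and XBP1 were on the list as known genes of this response. A match to its element was thus likely beforehand and is no independent evidence. CRELD2, a secreted protein of the same response that was not on the list, rose by 0.25 on the log2 scale (SE 0.0553). SDF2L1 and PDIA4 had no match in this window.

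**Figure D5:**
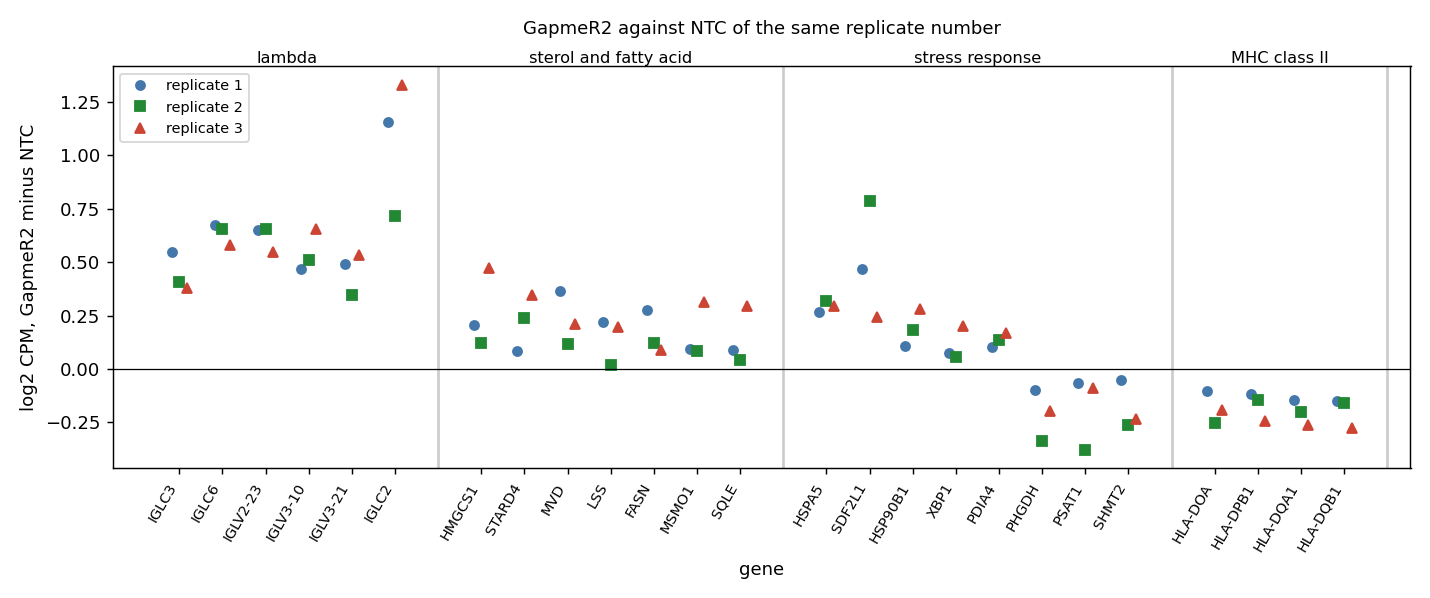
Each point is the log2 CPM of GapmeR2 minus NTC of the same replicate number (y axis) for called genes of 4 lists (x axis), shaped and coloured by replicate number. All 6 lambda segments, all 7 sterol and fatty acid genes and 5 chaperone or control genes lie above 0 in all 3 replicates, and PHGDH, PSAT1, SHMT2 and the 4 MHC class II genes lie below 0 in all 3.

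MHC class II genes present peptides to helper T cells and are expressed on B cells. Of 16 tested 4 fell (background 1.28%), 0 rose and 3 had a positive log2 fold change, with a median of −0.10. HLA-DOA had 344, 303 and 305 CPM against 348 to 370 CPM in the controls (log2 fold change −0.17, SE 0.0384), with no overlap. HLA-DQB1 (−0.17), HLA-DQA1 (−0.16) and HLA-DPB1 (−0.14) were the others, and HLA-DRA (−0.11), CD74 (−0.11) and CIITA (−0.03), the master regulator, were not called. When GapmeR2 replicate 3 was dropped 0 of the 16 were called by edgeR (6 at an unadjusted p under 0.05), while DESeq2 on all 8 libraries called 5. The count was also 0 without GapmeR2 replicate 2 or NTC replicate 3, and 1 without GapmeR2 replicate 1.

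Of 17 genes of B-cell precursor identity tested 2 fell, DNTT and VPREB3 (background 1.28%), 0 rose and 4 had a positive log2 fold change, with a median of −0.08. DNTT, the polymerase that adds nucleotides at immunoglobulin joints, had 869, 855 and 719 CPM against 875 to 1029 CPM in the controls (log2 fold change −0.24, SE 0.0373, edgeR adjusted p 6.45e-05). The highest GapmeR2 library (869 CPM) was just below the lowest control (875 CPM). It was also below GapmeR1 (−0.36) and the other 7 (−0.24). In these bulk libraries fewer cells of a type and less RNA per cell cannot be told apart.

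VPREB3, part of the pre-B-cell receptor pathway, was at −0.22 and SYK, the kinase of that receptor, at −0.18. They were the 2 that fell among 23 receptor and proximal signalling genes. For this and the next lists the background is 1.44% for a rise and 1.28% for a fall. TEC, a Tec family kinase of the same signalling, was outside the list and fell from 21.03 to 24.5 CPM to 16.8, 13.8 and 17.5 CPM (log2 fold change −0.55, SE 0.0767). Among 28 transcription factors FOXO1 (0.18) and IRF4 (0.15) rose and ERG (−0.21) fell. ERG also differed between NTC and medium, by −0.23. STAT5A (−0.28) was the only one of 18 genes of the JAK-STAT5 axis to pass, CD58 (−0.22) the only one of 19 surface antigens. Without GapmeR2 replicate 3 edgeR called 0 of the transcription factors, of the JAK-STAT5 genes and of the surface antigens. At an unadjusted p under 0.05 there were 11, 3 and 8. DESeq2 on all 8 libraries called 2, 0 and 0 of these lists and gave 5, 5 and 3 genes no adjusted p.

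Among proliferation and survival genes the background for a rise was again 1.44%. E2F2, CDC6 and CCNE2, which drive entry into DNA replication, rose by 0.25, 0.22 and 0.20 on the log2 scale, 3 of 44 cell cycle genes. Of 24 p53 target genes 4 rose, TP53INP1 (0.26), ZMAT3 (0.20), CDKN1A (0.17) and BBC3, and 1 fell (CCNG1, −0.16). In the BCL2 family, 14 genes tested, BCL2 fell by 0.18 and BBC3, which encodes the pro-apoptotic protein PUMA, rose by 0.31 on that scale. BCL2 had 289, 309 and 325 CPM against 332 to 365 CPM in the controls, with no overlap. Of the p53 targets 1 rose when GapmeR2 replicate 3 was left out, 0 to 5 when any 1 library was, and 0 by DESeq2, which gave 8 no adjusted p.

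Of 84 cytosolic ribosomal protein genes tested 4 fell (background 1.28%; RPL3, RPL4, RPL19 and RPL7A, between −0.13 and −0.15), 0 rose and 6 had a positive log2 fold change, with a median of −0.08. When GapmeR2 replicate 3 was left out 0 were called by edgeR (16 at an unadjusted p under 0.05), leaving out any 1 library gave from 0 to 12 (without NTC replicate 2), and DESeq2 with the block called 12. Of 38 ribosome biogenesis genes NPM1 (−0.14) fell, and of 25 mitochondrially encoded genes 0 were called by edgeR or DESeq2 (7 at an unadjusted p under 0.05). In the glycolysis list of 31, PFKFB3 (0.22) and PFKL (0.15) rose (background 1.44%) and GPI (−0.15), PFKM (−0.18) and GAPDH (−0.13) fell.

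Sensors and handlers of oligonucleotides were examined because a GapmeR is foreign nucleic acid. Of 19 nucleic acid sensors and 22 genes of RNase H, exonucleases and paraspeckles 0 were called by edgeR or DESeq2 (5 and 4 at an unadjusted p under 0.05). Of 33 interferon-stimulated genes ISG20 rose (0.48, SE 0.126) at 4.77 to 10.5 CPM with GapmeR2, and replicate 3 of NTC was similarly high at 7.90 CPM. KCNQ1OT1, a nuclear antisense lncRNA with a 2-mismatch site, rose by 0.44 (SE 0.0809) and MALAT1 by 0.15, 2 of 12 abundant lncRNAs (background 1.44%).

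Of the remaining leading genes HSPA8 and ALDH5A1 fell and SH3BP2, CXCL8 and ENSG00000248596 rose. HSPA8, the constitutive cytosolic chaperone Hsc70, had 1014, 1084 and 874 CPM against 1048 to 1429 CPM in the controls (log2 fold change −0.30, SE 0.0400). It was also below GapmeR1 (−0.27) and the other 7 (−0.26). ALDH5A1, the mitochondrial enzyme that oxidises succinate semialdehyde, had 264, 223 and 245 CPM against 296 to 333 CPM (log2 fold change −0.37, SE 0.0385), with no overlap, but was not below the other 7 (−0.06, adjusted p 0.244).

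SH3BP2, an adaptor protein, had 3.82, 3.65 and 11.2 CPM with GapmeR2, 2.60 and 1.27 CPM in medium, and 1.54, 2.14 and 5.81 CPM in NTC (log2 fold change 0.97, SE 0.152). CXCL8, the chemokine interleukin 8, had 3.95, 2.52 and 8.04 CPM against 1.63 and 0.827 CPM in medium and 2.23, 1.13 and 5.43 CPM in NTC (log2 fold change 0.90, SE 0.164). ENSG00000248596, a lncRNA, had 3.59, 2.69 and 11.7 CPM against 0.504 to 4.77 CPM (log2 fold change 1.28, SE 0.165). In these 3 genes replicate 3 was the highest library of both GapmeR2 and NTC, and the groups separate only within days.

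GapmeR2 and GapmeR1, which bind neighbouring 16-base sites of the same RNA, differed in 5439 of 16268 genes (33.4%), with 2800 higher and 2639 lower in GapmeR2. By adjusted p NUP43 (2.69), SIPA1L1 (2.69) and MCM3AP (2.09, log2 differences) led the higher side, and ENDOD1 (−1.21) and QRSL1 (−1.02) were among the leading genes of the lower side. None of these 5 was called in GapmeR2 against controls, where their log2 fold changes lay between −0.12 and −0.02. Of the genes called in GapmeR2 against controls, 77 of the 218 that rose and 68 of the 194 that fell also differed from GapmeR1 in that direction. Against the mean of the other 7 targeting GapmeRs 1994 genes (12.3%) differed, and 91 and 90 of those that rose and fell did so in the same direction. The smallest adjusted p belonged to WWOX, DNHD1 (0.94) and ZEB1 (0.79) above the other 7, and to YBX1, MPO (−0.53) and CD84 below them. Against controls GapmeR2 was at −0.37 for WWOX and 0.28 for DNHD1, both called. ZEB1 (0.06, edgeR adjusted p 0.667) and MPO (−0.13, edgeR adjusted p 0.128) were not called. GapmeR1, part of the mean of the other 7, was at −1.76 for WWOX, −1.03 for DNHD1, −0.88 for ZEB1 and 0.96 for MPO against controls.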

How the data were processed

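The authors aligned stranded RNA-seq reads to hg38 with STAR, and the deposited values are its raw read counts per gene for each of the 27 samples. The labels state ribodepleted total RNA, the methods of the study poly-A selection. The annotation release is not given in the sources used here. The column of the transcript strand, which held a median of 95.3% of stranded counts, was used. Of 60619 gene identifiers 56434 matched GENCODE v44. Counts were tested with edgeR (4.0.16, R 4.3.3) quasi-likelihood F tests after TMM normalisation and filterByExpr (minimum count 10, total 15, target always kept), with replicate number as a block. Same-number libraries deviated together (7 pairs, r 0.132 to 0.553, mean 0.309, from log2 CPM). For the 14 pairs of different numbers r was −0.388 to 0.151 (mean −0.153), so the ranges overlap slightly. These are deviations from group means, which cancel within each group. Values below 0 for different numbers are thus partly built in, and the pairs are not independent of each other. The study ran replicates on different days, and the numbers were taken as pairs. It does not state that libraries of the same number share a day. Main fits used the 8 samples, and contrasts between GapmeRs one fit of all 27. P-values were adjusted by Benjamini-Hochberg, and genes under 0.05 are called risen or fallen. DESeq2 (1.42.0) was an alternative. CPM used TMM library sizes. Oligonucleotide sequences came from the study's supplement and sites from GRCh38. Genes were named by rule: target, neighbours, the study's immunoglobulin genes, the 10 largest changes with at least 1 CPM and the 5 smallest adjusted p in each direction, up to 4 called members per list, and the 3 leading genes in each direction of the GapmeR contrasts. Genes named outside it (for a site or motif, such as TMEM268, NUP205, DYM and CRELD2, to complete a list's count, or as known regulators) were chosen after their values were seen. Some results that the rule would name are not reported here. The members, lists and tests were chosen with earlier results of these data known.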

Additional observations from a re-analysis of the deposited data

Results flagged for a closer look

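GapmeR2 and GapmeR1 against lnc-NKX2-3-1 differed in 5439 genes by the test of the difference itself, and GapmeR2 differed from the mean of the other 7 targeting GapmeRs in 1994. Of the genes named, 19 differed between GapmeR2 and GapmeR1 by at least 1 on the log2 scale at an edgeR adjusted p under 0.05. GapmeR2 was the lower for CD84 (−2.50), ENDOD1 (−1.21), MPO (−1.08), IGLV2-23 (−1.08), IGLV3-21 (−1.07), IGLC6 (−1.06), QRSL1 (−1.02) and IGLC3 (−1.01). It was the higher for KCNQ1OT1 (1.03), LINC01088 (1.07), DNHD1 (1.35), WWOX (1.37), DMD (1.62), EGF (1.78), ENSG00000248596 (1.87), DNAH3 (1.88), MCM3AP (2.09), SIPA1L1 (2.69) and NUP43 (2.69).

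Reads that did not map were no part of the comparisons. They made up 4.53% of GapmeR2 replicate 3, above the highest control at 1.72%. What they hold was not analysed here.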

How the results depend on the processing

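The replicate block decided the number of calls: without pairing by replicate number 0 genes were called by edgeR in place of 412 (615 at an unadjusted p under 0.05), 2898 in place of 5439 between GapmeR2 and GapmeR1, 223 in place of 1994 against the other 7 targeting GapmeRs, and 0 in place of 11 between NTC and medium. The log2 fold change of lnc-NKX2-3-1 was then −2.59, no longer past the threshold. With unstranded counts it was −0.47, also not past the threshold. DESeq2 gave no adjusted p for it (log2 fold change −2.59), for 39 of the 97 other named genes or for 7331 genes in all. GapmeR2 against controls gave 220 genes with DESeq2, 241 with NTC only, 987 with medium only, 901 with medium and NTC as separate groups and 146 with replicate numbers 1 and 2 only. Leaving out 1 of the 8 libraries gave 71 to 579 genes and a log2 fold change of the target of −2.88 to −2.28. Leaving out a GapmeR2 replicate gave 4675 to 5321 genes against GapmeR1 and 772 (without replicate 3) to 1630 against the other 7, and leaving out a control gave 0 (without medium replicate 2) to 33 between NTC and medium. No named gene that was called changed direction, while some that were not called crossed 0, such as ABCC2, CUTC, LINC01475, NUP43 and ZEB1. With at least 10 counts in every sample the target was not tested. RLE normalisation changed the 412 to 415, no low-count filter to 507 and unstranded counts to 399. With at most 23 counts a library, the depth limits how well the level of the target is known.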
